A study of Capra hircus with 90 samples.

Results

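Respiratory complex I is the first enzyme of the mitochondrial electron transport chain, and 6 of its nuclear subunit genes, NDUFA2, NDUFA6, NDUFA7, NDUFA13, NDUFB4 and NDUFS5, were followed here through 3 brainstem sites of goats that breathed CO2. The 6 genes were selected on these same libraries: they are the complex I subunits that the authors' deposited table of the nucleus of the solitary tract after 24 h of CO2 lists, all as lower than in room air. They are 6 of 25144 genes in the count table and 6 of 238 genes that could be linked to a symbol. Of 37 nuclear complex I subunits looked for, the other 31 have no linked symbol and were not analysed here, so the 6 do not stand for the complex as a whole.

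RNA was sequenced from tissue punches of adult (at least 2 years old) outbred female goats, 6 in each of 5 exposure groups: 24 h of room air, 3 h of 6% CO2, 24 h of 6% CO2, 7 d of room air and 7 d of 6% CO2. Each goat was punched at 3 places counted rostrally from the obex: 0 to 2 mm for the nucleus of the solitary tract (NTS), 2 to 4 mm for the ventral respiratory column (VRC), which here takes in the pre-Bötzinger complex and nucleus ambiguus, and 8 to 10 mm for the retrotrapezoid nucleus (RTN). This gave 15 groups of 6 libraries. RNA extraction and sequencing put the 3 h and 24 h goats in a first batch and both 7 d groups in a second, so time and batch cannot be told apart between them. For 3 h of CO2 no room-air group of equal length exists, and the baseline is 24 h of room air. A punch holds all cell types of its site, and in such bulk RNA fewer cells of a type and less RNA per cell cannot be told apart.

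Complex I passes electrons from NADH to ubiquinone and uses the energy to move protons across the inner mitochondrial membrane, which drives ATP synthesis. It has the shape of an L, with a matrix arm that holds the redox centres and a membrane arm that holds the proton channels. Its catalytic core is kept from bacteria to mammals, while many small accessory subunits, among them all 6 genes described here, surround the core and serve its assembly and stability. Neurons depend heavily on oxidative phosphorylation, and defects of complex I are a known cause of brainstem disease such as Leigh syndrome. NDUFA2, a small protein with a thioredoxin-like fold, NDUFA6, a LYR-motif protein that binds an acyl carrier protein, and NDUFA7 belong to the matrix arm. NDUFA13, also known as GRIM-19 and linked to cell death signalling, crosses the membrane and reaches into the matrix arm. NDUFB4 belongs to the far part of the membrane arm, and NDUFS5 lies on its intermembrane-space face.

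Library totals ran from 5.46 M to 36.8 M counts. Behind the levels of the 6 genes stood at least 637 counts (NDUFA7) and up to 10630 counts (NDUFS5) per library. Among the first-batch NTS libraries, 5 lay apart from the other 13 on the first principal component of the 1000 most variable genes, which held 30.7% of the variance: libraries 5 and 6 of room air, 5 and 6 of 3 h CO2 and 5 of 24 h CO2 had scores from 12.5 to 49.3 and all others -6.63 or lower. The first-batch NTS differences of the subunits, and in part those of the linked chain genes and markers, are given with and without them. Of the site and cell type markers sought, only those below could be linked to a row of the counts, so the labelled sites could not be checked against their own defining genes. A symbol could be linked only where a comparison table of the authors lists the gene, so the linked markers were also selected on these libraries.

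In the NTS, all 6 subunits were lower after 24 h of CO2 than in room air, with group means 0.597 to 0.701 times those of room air. This is the comparison that chose them, so the values describe the choice and no test is read from them. In the authors' deposited table NDUFA6 has a log2 fold change of -0.74, NDUFA7 of -0.60, NDUFA2 of -0.57, NDUFB4 of -0.55, NDUFS5 of -0.53 and NDUFA13 of -0.51. That table lists 180 genes, 155 of them lower, all with an adjusted p of 0.0499 or less and an absolute log2 change of at least 0.50. NDUFA13 lies just inside that limit. Just outside it were 70 genes that pass 0.05 when the likelihood ratio test is rebuilt over all 90 libraries, 50 of them lower, of which the nearest has a log2 change of -0.4998.

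The matrix-arm subunits are taken first, in CPM, the normalised count as a rate per library total. NDUFA2 lay between 195 and 316 CPM in room air (median 209) and between 136 and 171 CPM after 24 h of CO2 (median 148). NDUFA6 lay between 114 and 244 CPM in room air (median 153.5) and between 77.3 and 122 CPM after CO2 (median 93.6). NDUFA7 lay between 100.8 and 180.0 CPM in room air (median 119) and between 74.5 and 98.7 CPM after CO2 (median 79.6). For NDUFA2 and NDUFA7 every CO2 library was below every room-air library. For NDUFA6 a single pair crossed: library 5 of CO2, at 122 CPM, was above library 5 of room air, at 114 CPM.

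Among the membrane-arm subunits, NDUFA13 lay between 164 and 299 CPM in room air (median 177) and between 117 and 157 CPM after 24 h of CO2 (median 135). NDUFB4 lay between 110.2 and 185 CPM in room air (median 130.3) and between 83.1 and 105 CPM after CO2 (median 89.8). NDUFS5 lay between 229.9 and 415 CPM in room air (median 273) and between 181 and 231 CPM after CO2 (median 189.8). The groups of NDUFA13 and NDUFB4 did not overlap, and those of NDUFS5 crossed only in library 5 of each group, at 231 and 229.9 CPM. The groups were thus separate in 4 of the 6 genes. Of the 15605 genes tested, 0.968% were separate and lower, and nothing is read from the contrast, since this comparison chose the 6. In all 6 genes library 6 of room air was the highest.

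**Figure D1:**
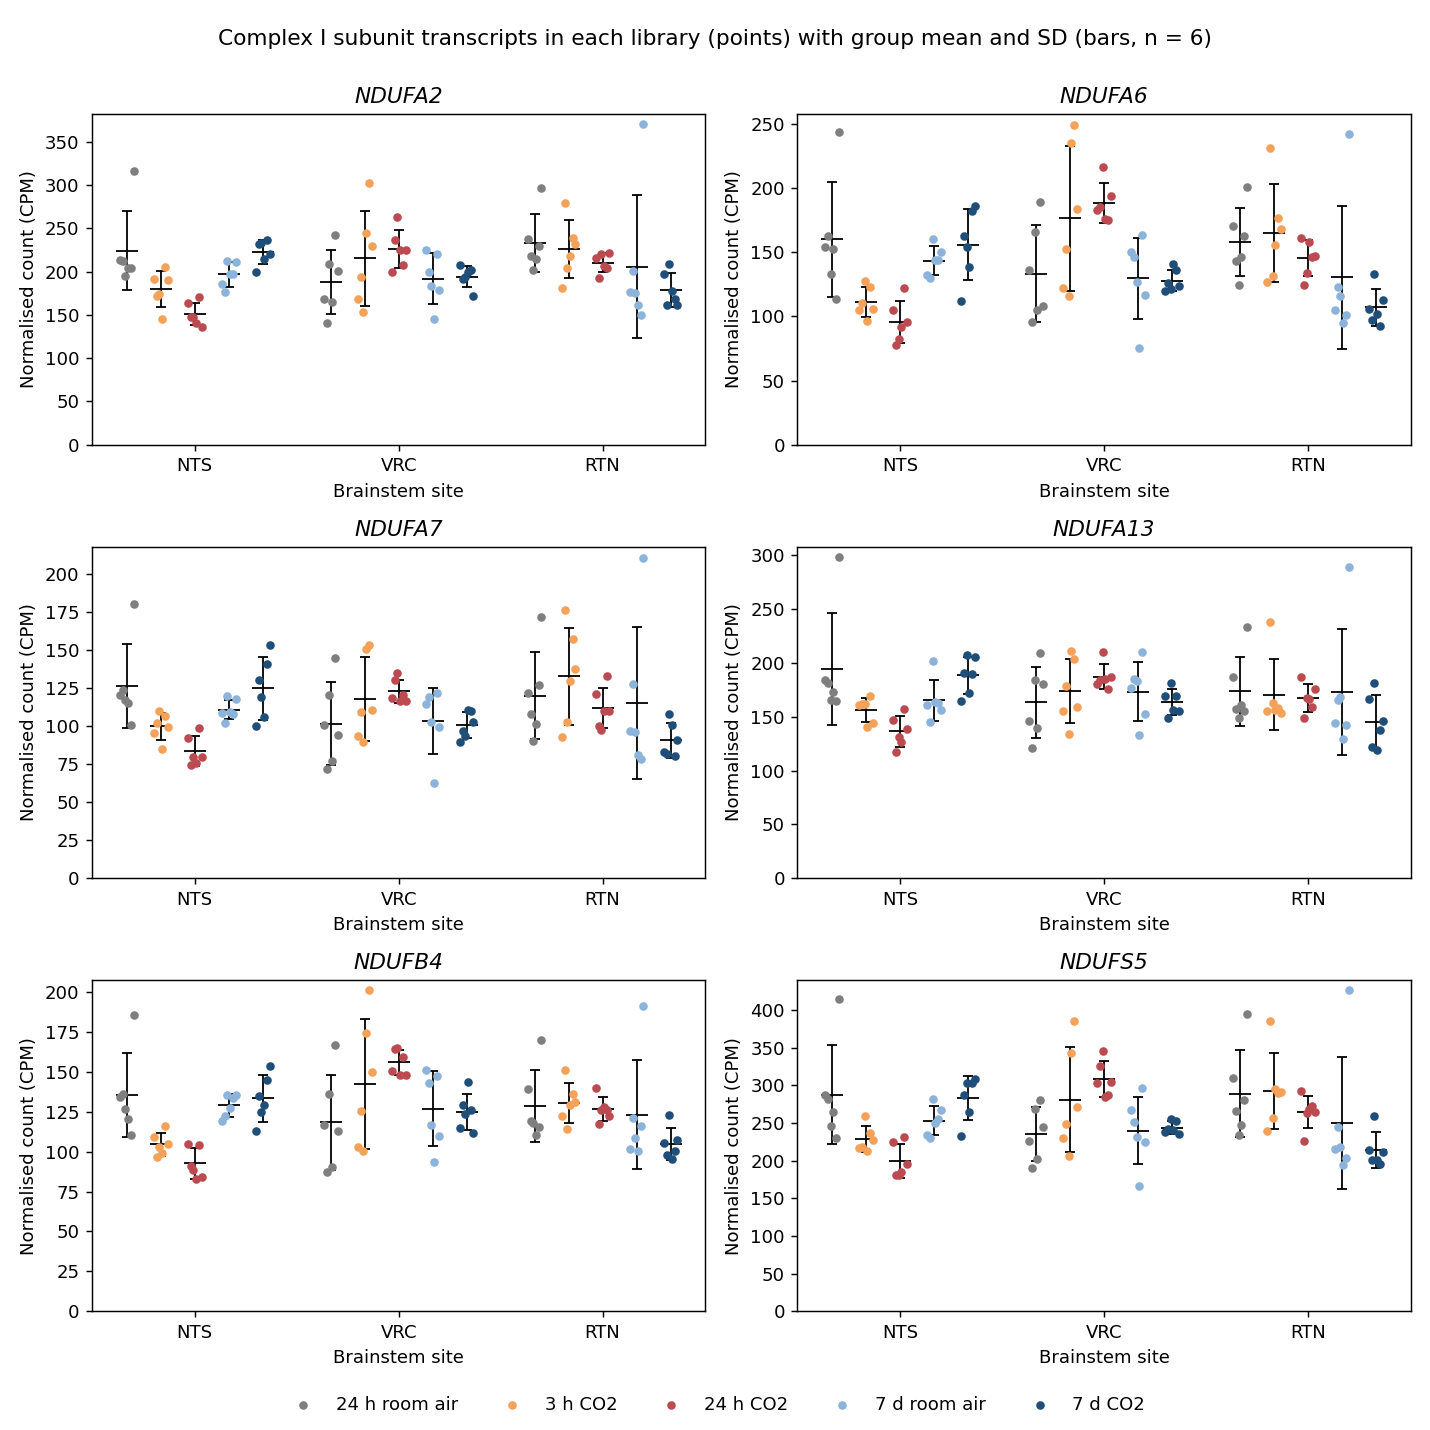
Normalised counts (CPM, vertical axis from 0) of each subunit gene in every library (points), by site and exposure, with the group mean and SD (bars, n = 6). The NTS after 24 h of CO2, on which the genes were chosen as lower, has the lowest group mean of each gene (83.3 CPM for NDUFA7). Single VRC room-air libraries lie lower for NDUFA7, at 62.4 and 71.9 CPM. Single libraries stand high for NDUFA2, at 316 CPM in NTS 24 h room air and at 370.2 CPM in RTN 7 d room air.

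Fitted with edgeR's quasi-likelihood test on the NTS libraries of the first batch, the differences ran from -0.74 for NDUFA6 (SE 0.15) to -0.50 for NDUFA13 (SE 0.13), with a median of -0.55 against 0.01 over all genes. The Benjamini-Hochberg adjusted p was 0.111 for NDUFA2, NDUFA6, NDUFA7 and NDUFB4, 0.112 for NDUFS5 and 0.136 for NDUFA13. None of the 6 passed 0.05, nor did any other gene (0% of 15605), although 1591 genes had an unadjusted p under 0.05. DESeq2 was run on the same libraries, which chose the genes. It placed all 6 past 0.05 (adjusted p from 0.00431 to 0.0252), where 1.3% of genes were lower and past it. The likelihood ratio test over all 90 libraries, which rebuilds the test that put the genes in the deposited table, places all 6 past it by construction (1.16% of genes were lower and past it).

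The libraries left in the fit moved these values. All come from the comparison that chose the genes, so no pass here is read as a test. Without the 5 NTS libraries that lie apart, all 6 subunits passed 0.05 by edgeR (adjusted p from 0.00443 for NDUFA6 to 0.0259 for NDUFA13), where 0.845% of genes were lower and past it. Their log2 differences were then -0.73 for NDUFA6, -0.56 for NDUFA7, -0.51 for NDUFB4, -0.48 for NDUFA2, -0.48 for NDUFS5 and -0.41 for NDUFA13. NDUFA2 averaged 206 ± 8.66 CPM in the 4 room-air libraries that remain and 147 ± 10.1 CPM in the 5 CO2 libraries (SD). Without library 5 of room air or library 5 of CO2, 5 of the 6 passed and NDUFA13 did not (adjusted p = 0.0662 and 0.0591 by edgeR). Without library 6 of room air, where all 6 stand highest, 0 passed and the differences shrank to between -0.57 for NDUFA6 and -0.33 for NDUFA13.

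**Figure D2:**
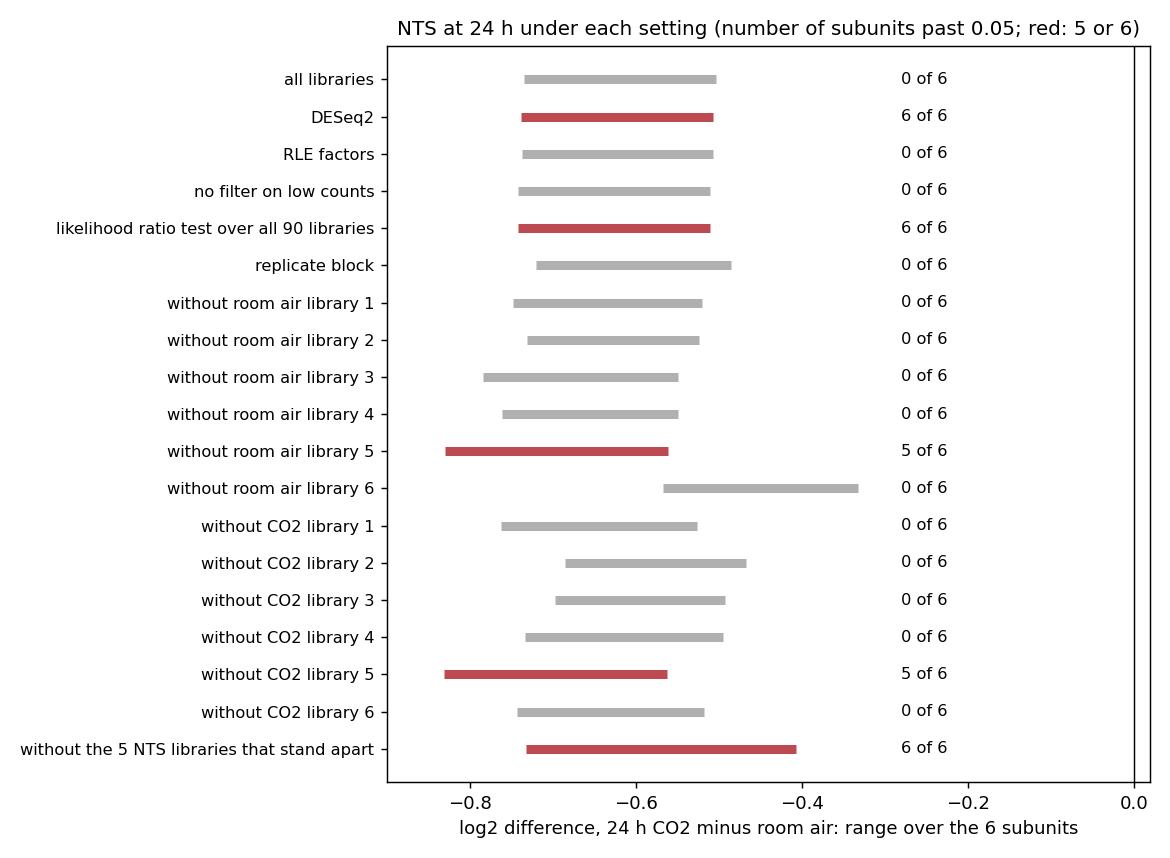
Range over the 6 subunits of the log2 difference between 24 h of CO2 and room air in the NTS (horizontal axis, bars) under each setting (rows), with the number of subunits past 0.05 at the right and bars red where 5 or 6 passed. The differences are below 0 in every setting shown, with the range nearest to 0 without library 6 of room air, from -0.57 to -0.33. The genes were chosen as lower on these libraries.

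Markers of other cell types were set beside this difference, and their part in it was not tested. The 2 linked genes of the list of 4 for microglia and myeloid cells, AIF1 and CD14, summed to 62.5 to 117 CPM in room air and 35.9 to 86.2 CPM after 24 h of CO2. The 2 of 5 for oligodendrocytes, OLIG1 and OLIG2, summed to 28.5 to 65.9 and 24.7 to 106 CPM. The 2 of 4 for endothelium, THBD and NOS3, summed to 17.6 to 26.9 and 16.1 to 52.2 CPM. All 3 sums overlapped between the groups. The sums hide genes that differed in opposite directions without passing the test: AIF1 by -0.64 (SE 0.21, adjusted p = 0.247 by edgeR) and CD14 by 0.84 (SE 0.24, adjusted p = 0.169). PRPH, the 1 linked neuronal gene of 6, ran from 3.59 to 571 CPM in room air and from 1.91 to 35.3 CPM after CO2. Its high values were all in libraries that lie apart, and without them it ran from 3.59 to 5.82 and from 1.91 to 4.91 CPM. TTR, 1 of 2 for choroid plexus and ependyma, ran from 1.04 to 3.65 and from 0.759 to 35.4 CPM. HBQ1 and HEMGN, both genes sought for red cells, summed to 11.9 to 25.3 and 8.12 to 19.2 CPM, 0 of 3 astrocyte markers could be linked, and no linked marker was at 0 in either group. HBQ1, a globin gene, differed by -0.82 (SE 0.22, adjusted p = 0.137 by edgeR) and HEMGN by 1.88 (SE 0.55, adjusted p = 0.182). The linked markers, like the subunits, were selected on these libraries, so no pass is read as a test. Without the 5 libraries HBQ1 was lower after CO2, as the subunits were (log2 difference -0.80, SE 0.17, adjusted p = 0.0332 by edgeR). AIF1 was then at -0.49 (SE 0.15, adjusted p = 0.207). The other gene of each of these 2 lists still went the opposite way. HEMGN was at 1.34 (SE 0.47, adjusted p = 0.301 by edgeR) and CD14 at 0.63 (SE 0.23, adjusted p = 0.323).

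After 3 h of CO2 the subunits in the NTS lay between those of room air and those of 24 h, measured against the same room-air libraries that chose the genes. Group means were 0.696 times those of room air for NDUFA6 and 0.773 to 0.804 times for the other 5. NDUFA6 lay between 96.3 and 128 CPM (median 108) and NDUFB4 between 96.4 and 116 CPM (median 103.7). All 6 overlapped with room air. The log2 differences ran from -0.51 for NDUFA6 (SE 0.15) to -0.30 for NDUFA13 (SE 0.13), and 0 of the 6 passed 0.05 by edgeR (lowest adjusted p = 0.689), as 0% of genes did. All 6, and 6.75% of all genes, had an unadjusted p under 0.05. The 6 share the room-air libraries that chose them and vary together between libraries, so this is not a count of separate results. Without the 5 NTS libraries that lie apart the differences ran from -0.45 for NDUFA6 to -0.17 for NDUFA13 (lowest adjusted p = 0.298 by edgeR), and without library 6 of room air they ran from -0.35 to -0.13.

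After 7 d, against room-air goats that the choice did not use, the NTS subunits were not lower. All 6 group means were above room air, by log2 differences of 0.05 for NDUFB4 (SE 0.08) to 0.19 for NDUFA13 (SE 0.09). NDUFA2 lay between 177 and 212 CPM in room air (median 197) and between 199.8 and 237 CPM after CO2 (median 226). The groups overlapped for all 6 genes, and 0 of 6 passed 0.05 by edgeR (lowest adjusted p = 0.618, that of NDUFA2, with 1 of 6, and 8.02% of all genes, at an unadjusted p under 0.05), against 0.00653% of genes. DESeq2 also placed 0 of 6 past it.

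In the VRC the subunits were higher on average in the CO2 groups of the first batch, and no difference passed the test. After 24 h of CO2 the log2 differences were 0.51 for NDUFA6 (SE 0.19), 0.41 for NDUFB4 (SE 0.16), 0.39 for NDUFS5 (SE 0.13), 0.29 for NDUFA7 (SE 0.16), 0.27 for NDUFA2 (SE 0.15) and 0.20 for NDUFA13 (SE 0.12). NDUFS5 lay between 191 and 280.2 CPM in room air (median 235.5) and between 284 and 345 CPM after CO2 (median 304), and its groups alone of the 6 did not overlap. Of all 15424 genes tested, 72 were separate and higher after CO2 and 227 separate and lower. NDUFA6 lay between 95.6 and 189 CPM in room air (median 122) and between 175 and 216 CPM after CO2 (median 184). The lowest adjusted p by edgeR was 0.189, that of NDUFS5, so 0 of 6 passed 0.05 where 0.817% of genes did. An unadjusted p under 0.05 was seen in 3 of 6, which vary together between libraries, and in 12.8% of all genes. DESeq2 placed 0 of 6 past 0.05 as well.

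The libraries of the VRC after 24 h of CO2 lay close together, while those of its room air were wide apart. On the mean log2 CPM of the 6 genes the SD between libraries was 0.09 after 24 h of CO2 and 0.31 in room air. After 3 h of CO2 the SD was 0.35, and NDUFB4 for example ran from 100.3 to 201 CPM (median 138). The 3 h differences were 0.09 for NDUFA13 (SE 0.12) to 0.41 for NDUFA6 (SE 0.19), with a median of 0.24, and without library 5 of 3 h CO2 they were 0.03 to 0.28, with a median of 0.13. All groups overlapped at 3 h, and 0 of 6 passed 0.05 by edgeR (lowest adjusted p = 0.357, that of NDUFA6, with 1 of 6, and 13% of all genes, at an unadjusted p under 0.05) where 0.013% of genes did. OLIG1, an oligodendrocyte factor, differed by -1.91 (SE 0.43, adjusted p = 0.0489 by edgeR) between the 24 h groups of the VRC, and the part of such markers in the subunit differences was not tested.

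After 7 d the VRC means were close to those of room air. With room air first, NDUFS5 averaged 239.7 ± 44.3 and 244 ± 8.09 CPM and NDUFA6 129.7 ± 31.5 and 128 ± 8.48 CPM (SD, n = 6 each). The log2 differences lay between -0.08 for NDUFA13 (SE 0.10) and 0.03 for NDUFS5 (SE 0.11). By edgeR 0 of 6 passed 0.05 (lowest adjusted p = 0.884, with 0 of 6 at an unadjusted p under 0.05), as 0% of genes did, and DESeq2 placed 0 of 6 past it.

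In the RTN the subunits were near room air in the first batch. After 3 h of CO2 the log2 differences lay between -0.05 for NDUFA2 (SE 0.10) and 0.14 for NDUFA7 (SE 0.15), and 0 of 6 passed 0.05 by edgeR (lowest adjusted p = 0.894) where 0.0129% of genes did. After 24 h they lay between -0.14 for NDUFA2 (SE 0.10) and -0.02 for NDUFB4 (SE 0.10), and 0 of 6 passed (lowest adjusted p = 0.862), as 0% of genes did. No unadjusted p under 0.05 was seen (0 of 6 at either time), and DESeq2 placed 0 of 6 past 0.05. NDUFB4 averaged 129 ± 22.6 CPM in room air, 131 ± 12.5 CPM after 3 h and 127 ± 7.43 CPM after 24 h (SD, n = 6 each).

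After 7 d of CO2 all 6 RTN means were below room air, by a log2 difference of -0.21 for NDUFA2 (SE 0.19) to -0.35 for NDUFA7 (SE 0.22), and this rests on 1 library. By edgeR 0 of 6 passed 0.05 (lowest adjusted p = 0.999, with 0 of 6 at an unadjusted p under 0.05), as 0% of genes did, and DESeq2 placed 0 of 6 past it. NDUFS5 lay between 195 and 245 CPM in room-air libraries 1 to 5 and at 426 CPM in library 6, against 196 to 259.9 CPM after CO2. Without library 6 of room air the differences lay between -0.09 for NDUFA7 (SE 0.12) and 0.05 for NDUFA2 (SE 0.09), and room air averaged 215 ± 18.8 CPM for NDUFS5 (SD, n = 5) against 214 ± 23.6 CPM after CO2 (SD, n = 6).

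**Figure D3:**
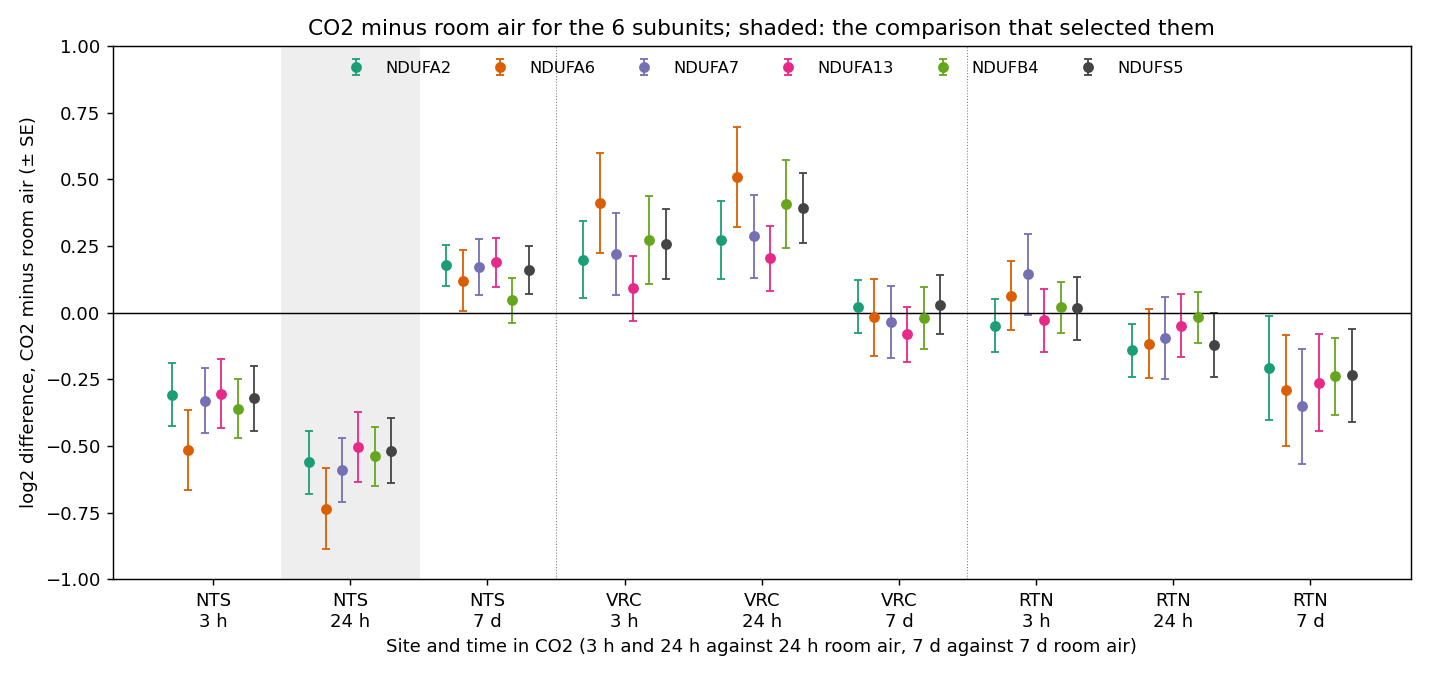
Log2 difference between CO2 and room air (vertical axis, ± SE) for each subunit gene (colours) at each site and time (horizontal axis), with the comparison that selected the genes shaded. In the NTS the 6 genes are below 0 at 3 h and 24 h and between 0.05 and 0.19 at 7 d, while in the VRC at 24 h they lie between 0.20 and 0.51.

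Whether CO2 acted differently on the subunits at different sites was tested where the choice of the genes allowed it. The 24 h difference in the VRC minus that in the RTN was 0.61 for NDUFA6 (SE 0.24), 0.51 for NDUFS5 (SE 0.18), 0.42 for NDUFB4 (SE 0.20), 0.41 for NDUFA2 (SE 0.18), 0.37 for NDUFA7 (SE 0.23) and 0.24 for NDUFA13 (SE 0.18). By edgeR 0 of 6 passed 0.05 (lowest adjusted p = 0.358, with 4 of 6, and 7.46% of all genes, at an unadjusted p under 0.05), while 1% of 16004 genes did. The 6 genes vary together between libraries, so these 4 are not separate results. Over the 3 sites at 7 d, 0 of 6 had differing CO2 differences (adjusted p = 0.929 for each, with 0 of 6 at an unadjusted p under 0.05), as 0% of genes did. Differences of the NTS at 24 h from the other sites were not tested, because the genes were chosen on the NTS value.

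Between sites in 7 d room air, no difference of the 6 transcripts passed the test. NDUFA13 averaged 165 ± 19.2 CPM in the NTS, 173 ± 27.2 CPM in the VRC and 173 ± 58.6 CPM in the RTN (SD, n = 6 each). The log2 differences between pairs of sites ran from -0.14 for NDUFA6 in the VRC against the NTS (SE 0.20) to 0.16 for NDUFA7 in the RTN against the VRC (SE 0.20). By edgeR 0 of 6 passed 0.05 in any of the 3 pairs (lowest adjusted p = 0.735). Of all 15591 genes, 8.72% passed between VRC and NTS, 8.27% between RTN and NTS and 4.52% between RTN and VRC. With the goat's number as a block, 2626, 2371 and 1979 genes passed in these pairs in place of 1359, 1289 and 704, and still 0 of the 6. The RTN values rest on library 6. Without it, a choice made after the data were seen, all 6 were lower in the RTN than in the NTS, by -0.13 for NDUFA13 (SE 0.11) to -0.40 for NDUFA6 (SE 0.14), and NDUFA6 averaged 108 ± 11.2 CPM in the RTN (SD, n = 5) and 143 ± 11.4 CPM in the NTS (SD, n = 6). By edgeR 0 of 6 passed 0.05 (lowest adjusted p = 0.0886, that of NDUFA6, with 1 of 6 at an unadjusted p under 0.05). Against the VRC the differences were then -0.10 for NDUFA7 (SE 0.14) to -0.26 for NDUFA6 (SE 0.14), 0 of 6 passed (lowest adjusted p = 0.334), and 460 genes passed in place of 704.

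Over the 15 groups, the NTS after 24 h of CO2 had the lowest mean of each of the 6 genes, from 83.3 ± 9.76 CPM for NDUFA7 to 199.7 ± 22.6 CPM for NDUFS5 (SD, n = 6). The genes were chosen as lower in that group than in NTS room air. Its low rank is thus favoured by the choice, whichever libraries are left in. The next lowest was the RTN after 7 d of CO2 for 5 genes and the NTS after 3 h of CO2 for NDUFB4. The highest group differed between genes. NDUFA6, NDUFB4 and NDUFS5 were highest in the VRC after 24 h of CO2, NDUFA2 in RTN 24 h room air, NDUFA7 in the RTN after 3 h of CO2 and NDUFA13 in NTS 24 h room air. Of 84 steps between neighbours in these orders, 3 were larger than the larger SD of the pair. For NDUFA2 and NDUFB4 it was the last step, down to the NTS after 24 h of CO2, and for NDUFA6 the step from the VRC after 7 d of CO2 down to the NTS after 3 h of CO2. Without the 5 NTS libraries that lie apart and library 6 of RTN 7 d room air, the NTS after 24 h of CO2 was still lowest for all 6, 4 of 84 steps were larger than the larger SD, and NDUFA13 was highest in the NTS after 7 d of CO2. Groups of different batches stand in 1 order here, and batch cannot be told apart from time in it.

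The 6 genes differed in how far they ranged. From the lowest to the highest group mean NDUFA6 spanned 0.99 on the log2 scale, NDUFB4 0.75, NDUFA7 0.64, NDUFS5 0.63, NDUFA2 0.62 and NDUFA13 0.48. NDUFA6 had the largest size of difference of the 6 in the NTS at 3 h and 24 h and in the VRC at 3 h and 24 h, and NDUFA13 the smallest at the same 4 points. The spans take in the NTS after 24 h of CO2, on which the genes were chosen. All these values are descriptions, and differences between the genes were not tested.

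Within groups, a library high in 1 subunit was high in the others. After subtraction of group means, log2 CPM of pairs of subunits correlated at 0.801 (NDUFA7 with NDUFA13) to 0.947 (NDUFA6 with NDUFS5), with a median of 0.878 over 15 pairs and 90 libraries. These points share libraries, goats and scaling factors, and each goat gives 3 of them, so the coefficients are descriptions. The mean of the 6 had coefficients with 17724 other genes whose 5th and 95th percentiles were -0.445 and 0.463, with a median of -0.01. It correlated at -0.153 with the log2 library total, -0.100 with the number of genes with a count and 0.115 with the share of counts in the 100 highest genes. In the first batch these coefficients were -0.222, 0.007 and 0.132, and in the second 0.026, -0.426 and 0.091. Of the markers, HBQ1 had the highest coefficient, 0.535, above that 95th percentile. AIF1 had 0.398 and THBD -0.354 (-0.509 in the first batch and -0.046 in the second). The other linked gene of the same lists had -0.163 (HEMGN), -0.239 (CD14) and 0.03 (NOS3). The part of these markers in the subunits' spread was not tested. Across sites of goats with the same number the deviations correlated at -0.215 between NTS and VRC, 0.318 between NTS and RTN and 0.06 between VRC and RTN (30 goats).

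Other genes of the respiratory chain could be followed in 5 cases: UQCRQ and UQCR11, small subunits of complex III, COX5B and COX6B1, nuclear subunits of complex IV, and COX1, the mitochondrially encoded catalytic subunit of complex IV. Of 16 assembly factors and 7 mitochondrial subunits of complex I, 4 genes of complex II, 19 of ATP synthase and 7 regulators of mitochondrial biogenesis, 0 have a linked symbol. All 5 linked genes also appear in that same deposited table of the authors on NTS tissue at 24 h, the nuclear 4 as lower and COX1 as higher. By edgeR 0 of these 5 passed 0.05 in either direction in any of the 14 comparisons with all libraries.

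The 4 nuclear genes went with the subunits. The authors list them as lower in the NTS at 24 h, so their values there are no test. In the NTS, UQCRQ went from a room-air mean of 246 ± 53 CPM to 163 ± 11.7 CPM at 24 h, and COX6B1 from 334 ± 75.6 to 228 ± 23 CPM (SD, n = 6 each). Without the 5 NTS libraries that lie apart all 4 were lower past 0.05 by edgeR (adjusted p from 0.00443 for UQCRQ to 0.0464 for UQCR11), and COX6B1 averaged 320.2 ± 11.2 CPM in room air (SD, n = 4) and 220.3 ± 16.2 CPM at 24 h (SD, n = 5). Within groups the mean of the 6 subunits correlated at 0.951 with COX6B1, 0.938 with COX5B, 0.921 with UQCRQ and 0.866 with UQCR11. In the first batch alone these coefficients were 0.959, 0.950, 0.920 and 0.851 (54 libraries), and in the second 0.943, 0.926, 0.930 and 0.886 (36 libraries). A group of genes from outside the chain did the same: the mean of 13 linked ribosomal protein genes correlated at 0.908 with the subunits. These 13 have a linked symbol only because the authors' tables list them. They were thus selected on these libraries too and do not stand for ribosomal protein genes in general.

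COX1 went the other way in the NTS and the VRC. In the NTS its mean went from 323 ± 155 CPM (room air) to 1042 ± 527 CPM (24 h of CO2), and in the VRC from 907 ± 416 to 258 ± 65.2 CPM (SD, n = 6 each). Its log2 difference was 1.71 in the NTS (SE 0.63, adjusted p = 0.345 by edgeR) and -1.81 in the VRC (SE 0.45, adjusted p = 0.0818), while in both sites the 6 subunits had differences of the opposite sign. In the RTN at 24 h COX1 differed by -0.55 (SE 0.47, adjusted p = 0.893), the same sign as the 6 subunits there. Without the 5 NTS libraries that lie apart, the NTS difference of COX1 was 1.67 (SE 0.65, adjusted p = 0.430). Within groups COX1 correlated at -0.504 with the mean of the subunits, at -0.549 in the first batch and -0.442 in the second.

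**Figure D4:**
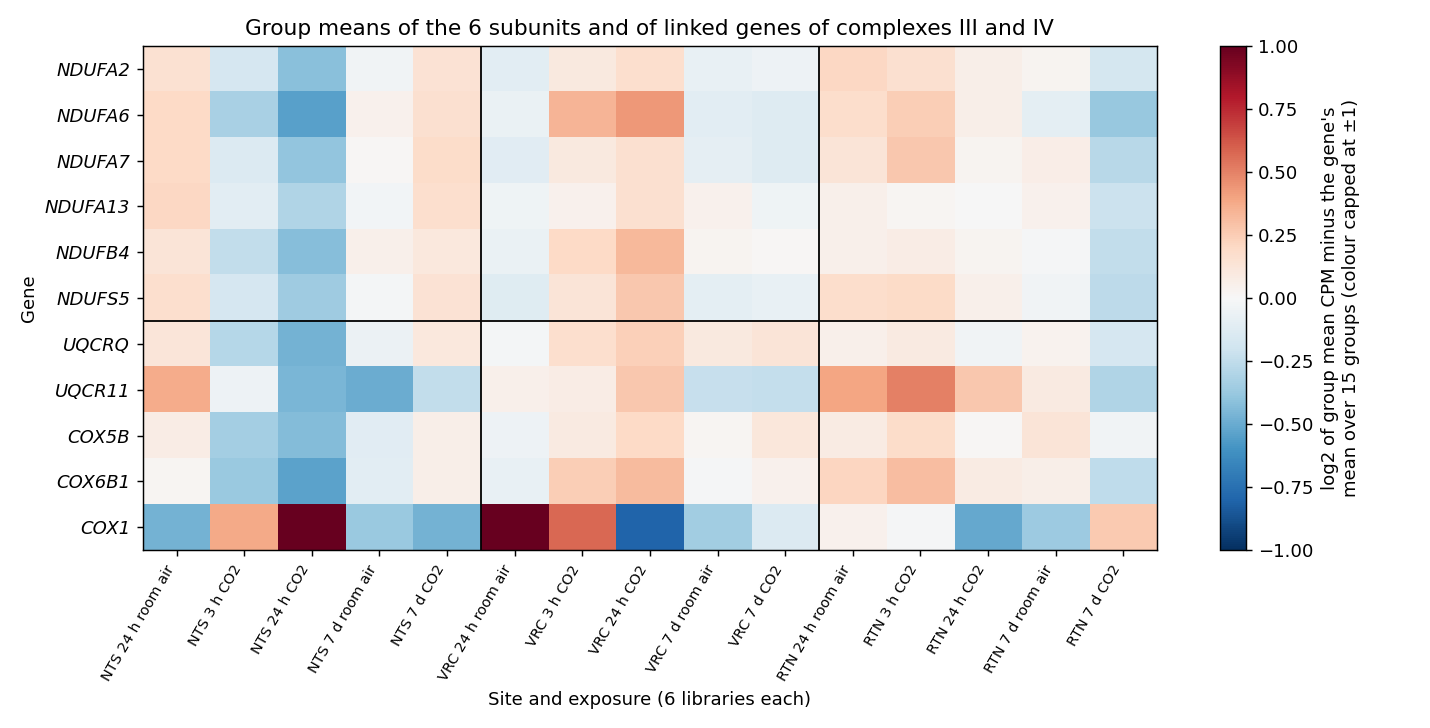
Group mean of each gene (rows) in each group of 6 libraries (columns), as log2 CPM minus the gene's mean over the 15 groups; red is above and blue below, with colour capped at 1. The 6 subunits and the 4 nuclear genes of complexes III and IV are below their means in the NTS after 24 h of CO2, where COX1, at 1042 CPM, is above. All are listed by the authors for that group with these directions, so the signs there describe the choice.

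Among 232 other genes with a linked symbol, those whose 15 group means of log2 CPM were most like the mean of the 6 subunits were RPS10 (r = 0.98), NAA38 (r = 0.974), RPL26 (r = 0.970), LSM7 (r = 0.959) and RPL26L1 (r = 0.957). Each subunit correlated with the mean of the other 5 at 0.901 (NDUFA13) to 0.984 (NDUFS5) over the same 15 means. All these symbols come from tables that the authors selected on these libraries, so the search covers 232 genes and not the transcriptome. RPS28, a ribosomal protein gene of the same deposited table, is the direct neighbour of NDUFA7 in the RefSeq annotation of goat assembly ARS1.2, and NDUFA2 there overlaps its neighbour TMCO6. Whether the counts kept strands apart is not given in the sources used here, so reads of NDUFA2 and TMCO6 in the overlap could not be assigned with certainty.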

How the data were processed

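RNA of 90 punches (30 goats, 3 sites, 15 groups of 6) was sequenced as 100-base pairs after SMART-Seq v4 amplification and Nextera XT library preparation, per the labels' protocols. Per the submitters' processing notes reads were handled with edgeR 4.6, featureCounts 2.0.6, STAR 2.7.10b and fastp 0.24.0, listed without roles. Build, annotation and strand use: not given in the sources used here. Raw counts per Ensembl gene ID fill the deposited count table, as the authors made them. The authors' comparison tables, per the file headers, give a log2 fold change, a log2 CPM, a likelihood ratio score, a p-value and an adjusted p for listed genes, by symbol. The count table holds no symbols, so listed genes were linked to it by rebuilding the authors' kind of fit and matching log2 CPM within 1e-06. Of 342 entries 341 had 1 match, which gave 238 symbols.

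In R 4.3.3, edgeR 4.0.16 (TMM, filterByExpr, quasi-likelihood test with robust fit) compared CO2 with room air within a site and batch. Sites, and CO2 differences between sites, were compared within a batch. The fits held groups only, with no block unless stated. P-values were adjusted by Benjamini-Hochberg over all genes tested, with a threshold of 0.05. The standard error of a log2 difference was derived from its F value. Levels are CPM with TMM factors over all 90 libraries, as mean ± SD of 6 libraries, and correlations use log2 CPM with a prior count of 2. Levels are not compared between genes, as no gene lengths were used here. Other settings tried were RLE factors, DESeq2 1.42.0, an unfiltered table, a likelihood ratio test over all libraries, the replicate number as a block, leaving out each library, and leaving out 5 NTS libraries. The tests were tried on simulated counts first. P-values of CO2 against room air within a site measure the spread between goats within a group. Tests that span sites, where no block is stated, took punches of 1 goat as independent and left out the pairing.

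The named genes are the 6 subunits, the linked genes of the respiratory chain and marker lists, and the 5 genes of most like group means. The members and lists were chosen with earlier results of these data known. Libraries with the same number at different sites come from the same goat, and deviations of same-numbered libraries from their group means had a median correlation of 0.383 between VRC and NTS in 7 d room air. Between NTS room air and 3 h CO2, different goats, all 6 pairs were above 0.1 (median 0.200).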

Additional observations from a re-analysis of the deposited data

Results flagged for a closer look

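Of 90 sets of 6 libraries (6 genes in 15 groups), 16 had a highest library whose gap to the next passed Dixon's 95% limit for 6 values; chance flags about 1 in 20 sets, and the 6 genes share their libraries, so the sets are not independent. All 16 were high values. In NTS 24 h room air, library 6 stood high for NDUFA2 (316 CPM), NDUFA7 (180.0 CPM), NDUFA13 (299 CPM), NDUFB4 (185 CPM) and NDUFS5 (415 CPM). In RTN 7 d room air, library 6 stood high for NDUFA2 (370.2 CPM), NDUFA6 (242 CPM), NDUFA7 (210.2 CPM), NDUFA13 (289 CPM), NDUFB4 (191 CPM) and NDUFS5 (426 CPM).

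The other 5 were single genes. NDUFA2 stood high in library 6 of RTN 24 h room air (297 CPM). NDUFA13 stood high in library 3 of the VRC after 24 h of CO2 (210.5 CPM), library 2 of the RTN after 3 h of CO2 (238 CPM) and library 3 of NTS 7 d room air (202 CPM). NDUFS5 stood high in library 3 of the RTN after 7 d of CO2 (259.9 CPM).

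Both libraries in which several subunits stood high were also high in the linked nuclear genes of complexes III and IV and in the linked ribosomal protein genes. Library 6 of NTS 24 h room air was above its group mean by 0.56 on the log2 scale for the mean of the 6 subunits, by 0.63 for 4 nuclear genes of complexes III and IV and by 0.72 for 13 ribosomal protein genes, and COX1 was at -1.75. Library 6 of RTN 7 d room air was above by 0.86, 0.92 and 0.99, with COX1 at -1.03. Other punches of the same goats differed in this. For the 24 h goat the mean of the subunits deviated by 0.44 in the RTN and by 0.00 in the VRC, and for the 7 d goat by 0.06 in the NTS and by -0.11 in the VRC.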

How the results depend on the processing

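In the NTS at 24 h, the comparison that chose the genes, no pass is read as a test. There edgeR placed 0 of the 6 subunits past 0.05. DESeq2 placed 6, the likelihood ratio test on all 90 libraries 6, and the fit without the 5 NTS libraries 6. Leaving out 1 library at a time gave 0 to 5, with 5 only without library 5 of room air or library 5 of CO2. RLE factors, no filter and the replicate block gave 0 (adjusted p with the replicate block from 0.0650 to 0.0873); there the same-numbered libraries are different goats and 4 of 6 pairs correlated above 0.1. The number of genes past 0.05 ran from 0 to 250 over these settings, and the cause was not tested. In the other 13 comparisons 0 subunits passed under every alternative run, the replicate block included. Signs of differences that did not pass turned in 14 of 102 refitted values, counted over genes and settings, in the VRC at 7 d, 13 in the RTN at 3 h, 5 in the RTN at 24 h and 1 in the RTN at 7 d, and between sites in 4 of 36 for RTN against NTS and 8 of 36 for RTN against VRC, where the setting without library 6 of RTN 7 d room air was chosen after seeing the data. These genes had at least 637 counts per library, and the part of depth in their differences was not tested.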
